A study of Mus musculus with 18 samples.

Results

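The transcript clusters of mouse chromosomes 11 and 12 that lay above background were examined in M12-5B3 B lymphoma cells carrying shRNAs against the transcription factors USF1 and USF2. A transcript cluster is a group of array probes that follows 1 transcribed locus, and its identifier names the chromosome. Of 72688 rows on the array, 3326 belonged to chromosome 11 or 12 and had a mean log2 value over the 18 arrays above 4.66. Chromosome 11 contributed 2198 of its 4272 clusters and chromosome 12 contributed 1128 of its 2619. The 23109 clusters above the same limit on the other autosomes (1 to 10 and 13 to 19) served for comparison. Both chromosomes were selected on the USFKD minus Control difference itself, at each of the 3 times, so that difference is given as a description. Where clusters are named or counted below as called on it, the call marks the size of the difference against the spread of the arrays, and nothing is supported with it.

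USFKD cells carry lentiviral shRNAs against Usf1 and Usf2, and Control cells carry a scrambled shRNA (sshRNA). Each line was profiled untreated and at 24 hr and 7 day after a single 5 Gy dose, with 3 arrays in each of the 6 groups. Both lines descend from M12-5B3, a p53-deficient mouse germinal center B cell line that also holds tetracycline-regulated Rag1 and Rag2 transgenes, kept silent here with the drug. They were obtained as puromycin-resistant clones. The study calls the replicates independent and refers to both clones and cultures, without saying whether the arrays of a group came from different clones. Differences that arose between the lines during cloning and the effect of the shRNAs cannot be told apart, and the p-values below measure the spread between these samples, which may be technical. There was 1 untreated group per line, so radiation, days in culture and array handling cannot be told apart either.

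Cells with an extra copy of a chromosome, or of part of one, usually make more RNA from most genes on it, by roughly the same proportion along the whole segment. Regulation by a transcription factor instead tends to touch scattered genes on all chromosomes. Cultured tumor lines often gain or lose chromosomes, and single-cell clones can differ in that respect. DNA copy number was not measured on these arrays. In bulk RNA, a change in the share of cells that express a gene and a change in RNA per cell cannot be told apart.

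USF1 and USF2 bind the E box CACGTG, a palindrome that reads the same on both strands. To show what such a promoter looks like on each chromosome, the window from 250 bases before to 50 bases after the annotated start (RefSeq, GRCm38.p6) is given for Naglu and Hif1a, with the E box in capitals. Naglu encodes a lysosomal enzyme that degrades heparan sulfate, and Hif1a encodes the oxygen-regulated subunit of the transcription factor HIF-1. They are the listed genes with the greatest untreated difference on each chromosome among those whose window holds the motif. Naglu lies on the plus strand at chr11:101069844-101070143, and its motif begins at position -73 relative to the start.
Naglu: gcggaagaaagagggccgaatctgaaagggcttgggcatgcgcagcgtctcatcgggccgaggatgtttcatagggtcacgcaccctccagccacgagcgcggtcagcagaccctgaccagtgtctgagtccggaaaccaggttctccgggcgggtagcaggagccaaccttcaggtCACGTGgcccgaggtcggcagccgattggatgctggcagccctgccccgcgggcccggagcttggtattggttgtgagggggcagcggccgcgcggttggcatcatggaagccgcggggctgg
Hif1a lies on the plus strand at chr12:73907617-73907916, and its motif begins at position -135.
Hif1a: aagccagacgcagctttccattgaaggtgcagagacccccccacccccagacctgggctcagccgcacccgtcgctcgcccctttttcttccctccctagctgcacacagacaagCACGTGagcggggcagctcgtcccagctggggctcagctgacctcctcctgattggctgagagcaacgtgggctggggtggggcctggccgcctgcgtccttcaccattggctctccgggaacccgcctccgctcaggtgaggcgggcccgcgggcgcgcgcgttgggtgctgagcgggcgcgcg
Among coding genes above the level limit with a promoter window, the motif was present in 92 of 730 on chromosome 11 (12.6%). It was present in 33 of 310 on chromosome 12 (10.6%) and 846 of 7063 on the other autosomes (11.98%). All 27025 windows, not limited to such genes and so an unlike set, held it in 2187 (8.09%). The 92 chromosome 11 genes with the motif had a median untreated USFKD minus Control difference of 0.22 on the log2 scale, and those without it had 0.23. On chromosome 12 the medians were 0.30 with and 0.25 without the motif, and on the other autosomes -0.10 with and -0.05 without it. Whether the difference goes with the motif was not tested. A match describes these letters in this window and is not evidence of binding.

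The cells carried the transcripts of B cells. Cd79a, Cd79b, Ms4a1, Pax5 and Cd22 had mean log2 values between 10.22 and 13.12, whereas every measured T cell, myeloid and erythroid marker averaged at or below 4.65, under the limit. The Ighm cluster averaged 3.88. Usf2 lay between 6.42 and 7.23 in USFKD cells and between 8.68 and 10.15 in Control cells over the 3 times, with no overlap. Usf1 lay between 5.03 and 5.31 in USFKD cells and between 5.2 and 5.35 in Control cells, so its array signal did not separate the lines. Replicates of a group correlated at 0.986 to 0.994.

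Clusters of both chromosomes were shifted upward in USFKD cells at all 3 times. On chromosome 11 the median USFKD minus Control difference was 0.17 untreated, 0.20 at 24 hr and 0.13 at 7 day on the log2 scale. On chromosome 12 it was 0.18, 0.19 and 0.14 at the same times, and on the other autosomes 0.02, 0.01 and -0.02. Relative to the other autosomes, the chromosome 11 shift corresponded to 1.11-fold untreated, 1.14-fold at 24 hr and 1.105-fold at 7 day, and the chromosome 12 shift to 1.115-fold, 1.13-fold and 1.11-fold. Chromosome 11 had 72.4% of its untreated differences above 0 and chromosome 12 had 75.3%, against 53.5% on the other autosomes.

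**Figure D1:**
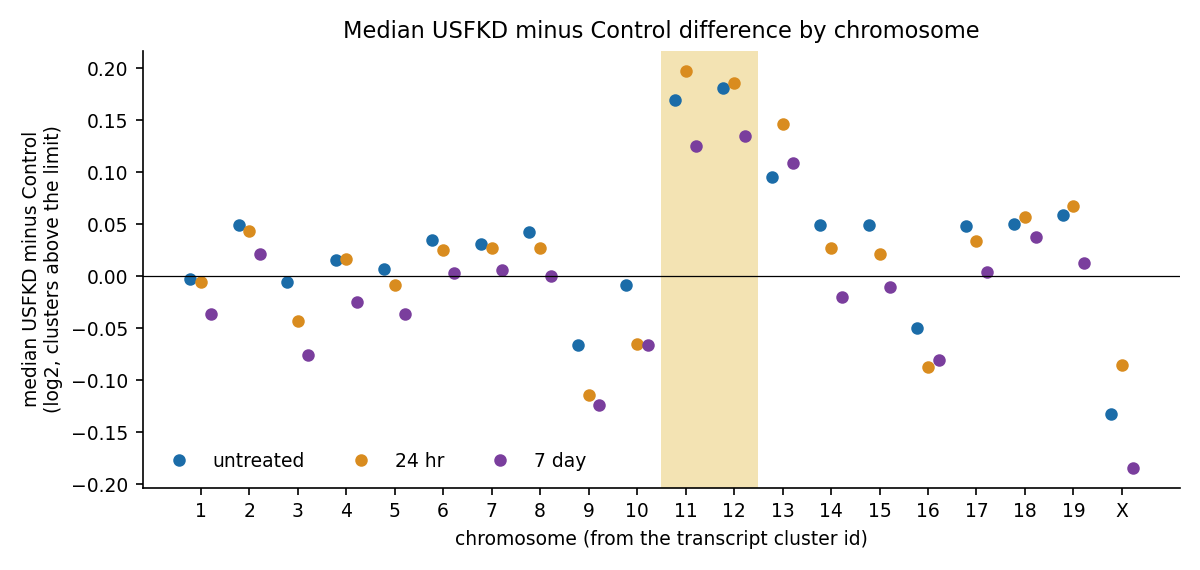
Median USFKD minus Control difference (log2, vertical axis) over the clusters above the limit on each mouse chromosome (horizontal axis), with 1 point for untreated, 24 hr and 7 day arrays. Chromosomes 11 and 12 (shaded) lie above 0.12 at every time, chromosome 13 reaches 0.15 at 24 hr, and chromosomes 9 and X lie at -0.0659 or lower at every time.

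Chromosomes 13, 9 and X were the nearest to compare with. The chromosome 13 median exceeded the other autosomes by 0.08 untreated, 0.14 at 24 hr and 0.13 at 7 day. Chromosome 9 was displaced the other way, by -0.095, -0.13 and -0.11. The X chromosome had medians of -0.13, -0.09 and -0.18. A displacement of a whole chromosome was thus not confined to chromosomes 11 and 12, although their medians ranked above those of every other chromosome at each of the 3 times.

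The shift was larger among protein-coding genes. Among 874 coding clusters of chromosome 11 the median difference was 0.22 untreated, 0.31 at 24 hr and 0.24 at 7 day, and among 353 of chromosome 12 it was 0.28, 0.35 and 0.33. The 8676 coding clusters of the other autosomes had medians of -0.06, 0.00 and 0.00. Relative to these, coding genes stood 1.21-fold, 1.25-fold and 1.18-fold higher on chromosome 11 at the 3 times, and 1.26-fold, 1.28-fold and 1.26-fold higher on chromosome 12. The middle range was broad: the quartiles of the untreated difference were 0.02 and 0.47 on chromosome 11 and 0.06 and 0.50 on chromosome 12.

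Every array showed it. Each array was summarized as the median deviation of its coding clusters from their means over all arrays, relative to the coding clusters of the other autosomes. Untreated USFKD arrays gave 0.164, 0.158 and 0.133 on chromosome 11, against -0.122, -0.124 and -0.128 in untreated Control. At 24 hr the values were 0.19, 0.155 and 0.163 in USFKD and -0.144, -0.131 and -0.134 in Control. At 7 day they were 0.118, 0.077 and 0.037 in USFKD and -0.149, -0.142 and -0.114 in Control. The groups never overlapped, and the USFKD arrays spread most at 7 day. On chromosome 12 the USFKD arrays lay between 0.142 and 0.158 untreated, between 0.157 and 0.215 at 24 hr and between 0.152 and 0.189 at 7 day. The Control arrays lay between -0.182 and -0.169, between -0.192 and -0.149 and between -0.17 and -0.117 at those times, again without overlap. Such separation was not particular to these chromosomes. Over all clusters above the limit, the arrays of the lines did not overlap at any time on chromosome 13 (USFKD higher) or chromosome 9 (USFKD lower) either.

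**Figure D2:**
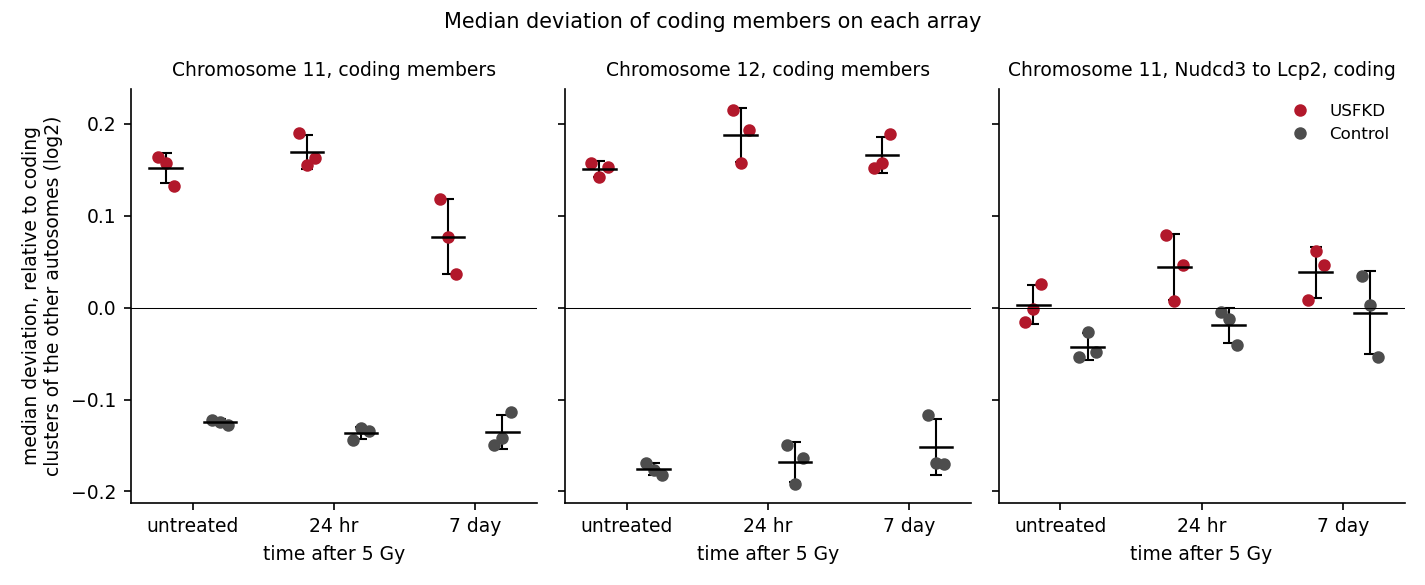
Median deviation of coding clusters on each array (points), relative to the coding clusters of the other autosomes (log2, vertical axis), by time (horizontal axis) with USFKD in red and Control in grey; bars are means and SD of 3 arrays. USFKD arrays of chromosome 12 lie between 0.142 and 0.215 and Control arrays between -0.192 and -0.117, whereas the Nudcd3 to Lcp2 stretch of chromosome 11 stays between -0.05 and 0.08 in both lines.

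Other classes of transcript were displaced less. The 233 pseudogene clusters of chromosome 11 had medians of -0.03 untreated, 0.13 at 24 hr and -0.03 at 7 day, beside -0.03, 0.10 and -0.06 for the 2194 pseudogenes of the other autosomes. The 67 pseudogenes of chromosome 12 had -0.01, 0.14 and -0.07. Small RNA clusters (snRNA, snoRNA and miRNA) of chromosome 11 had 0.15, -0.04 and -0.23, where those of the other autosomes had 0.08, -0.08 and -0.36. Pseudogene clusters thus lay close to the pseudogenes of the other autosomes at each time.

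The difference also varied with signal level. Members were divided into 4 level classes at mean log2 values of 5.37, 6.58 and 9.05. The dimmest class of chromosome 11 had an untreated median of 0.09, and the next ones 0.19, 0.27 and 0.23. Chromosome 12 gave 0.10, 0.19, 0.29 and 0.23, and the other autosomes 0.05, 0.07, -0.02 and -0.04. The brighter classes therefore stood farther from the other autosomes than the dimmest one did.

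The limit passed through clusters with small differences. On chromosome 11, Krt12 (a corneal keratin) lay just inside at 4.663 with an untreated difference of 0.12, and Cacng4 just outside at 4.659 with 0.03. On chromosome 12, Gm24377 lay inside at 4.662 with 0.10 and Gm21319 outside at 4.66 with -0.06.

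Along chromosome 11 the displacement was uneven. Identifiers run along each chromosome in 2 passes, which were merged by the RefSeq positions of named clusters, and the members in that order were divided into 20 bins of 109 or 110. The first bin, from Sfi1 to Ykt6, exceeded the other autosomes by 0.25 untreated, 0.28 at 24 hr and 0.22 at 7 day. In the next 3 bins, from Nudcd3 to Lcp2, the untreated excess was 0.04, 0.03 and 0.02. It was 0.06 to 0.10 in the bins from Foxi1 to Atpaf2. From Drg2 to the distal end, all 13 bins lay between 0.13 and 0.26, with the maximum between Acaca and Mrps23. At 24 hr and 7 day the lowest bins were again the ones from Rab1a to Fancl (0.07 and 0.06) and from Vrk2 to Lcp2 (0.07 and 0.03).

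Chromosome 12 was displaced along its whole length. All 10 bins of 112 or 113 members exceeded the other autosomes, by 0.11 to 0.27 untreated and by 0.10 to 0.30 at 24 hr. The bin from Gm5785 to Fancm was highest untreated and the one from Setd3 to Jag2 lowest. At 7 day the last bin, from Nudt14 to Sp4, which holds the immunoglobulin heavy chain locus, stood at 0.03, while the others lay between 0.10 and 0.27. The V segment clusters of chromosome 12 numbered 47 and were dim, with a median level of 5.11. Their median differences were 0.08 untreated, 0.10 at 24 hr and -0.10 at 7 day.

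For scale, the other autosomes were cut into 202 bins in the same way. Their untreated medians ran between -0.21 and 0.16, and 8 of the 202 (3.96%) exceeded 0.1. On chromosome 11, 14 of 20 bins did, and on chromosome 12 all 10 did. At 24 hr the counts were 18 of 20, 9 of 10 and 18 of 202 (8.91%), and at 7 day 16 of 20, 8 of 10 and 18 of 202. Chromosome 13 had 3, 9 and 7 of its 10 bins above that height at the 3 times.

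**Figure D3:**
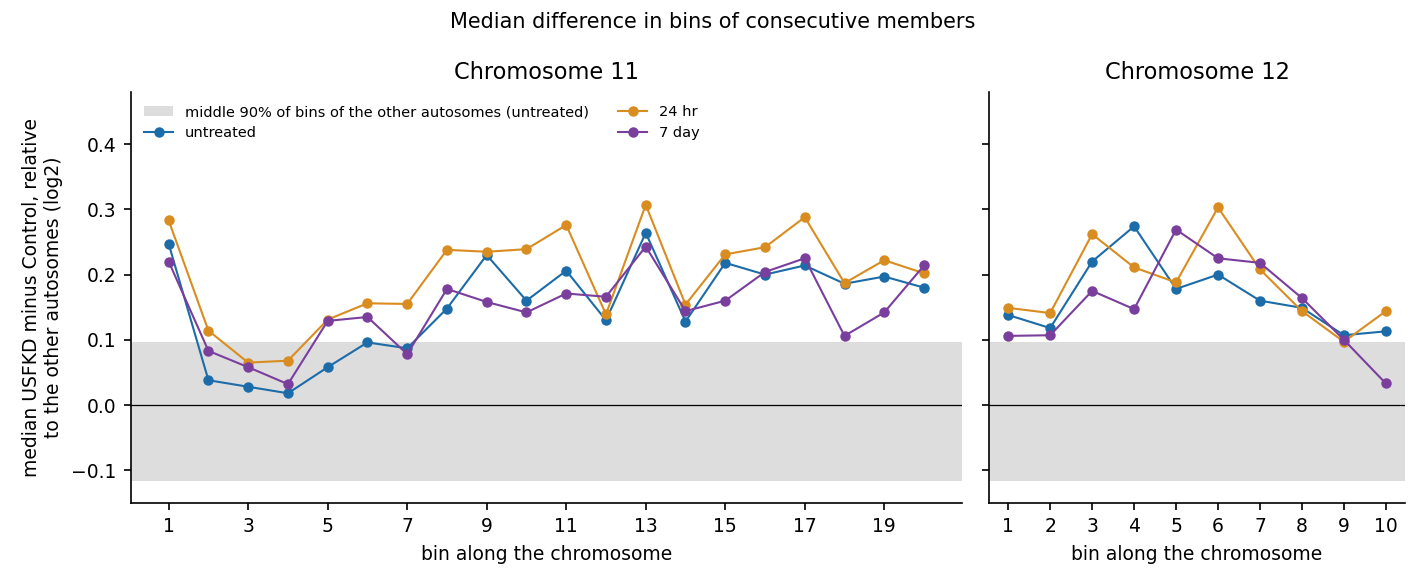
Median USFKD minus Control difference relative to the other autosomes (log2, vertical axis) in 20 consecutive bins of chromosome 11 and 10 of chromosome 12 (horizontal axis), with 1 line per time. The grey band holds the middle 90% of bins of the other autosomes (-0.12 to 0.10, untreated). Bins 2 to 4 of chromosome 11 dip to 0.02, and bins 8 to 20 stay above 0.12 untreated.

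Coding genes drew the same profile more sharply. The 40 coding clusters of the first chromosome 11 bin had an untreated median difference of 0.34, and 90% were above 0. The 85 between Nudcd3 and Lcp2 had -0.03 with 42.4% above 0, close to the 41.8% of coding clusters on the other autosomes. The 131 of the next 3 bins had 0.17 with 76.3%, and the 618 from Drg2 onward had 0.26 with 80.9%. At 24 hr the medians of these 4 stretches were 0.50, 0.03, 0.26 and 0.35. At 7 day they were 0.33, 0.06, 0.23 and 0.26. Per array, the coding clusters of the Nudcd3 to Lcp2 stretch differed by 1.03-fold untreated, 1.04-fold at 24 hr and 1.03-fold at 7 day, and the arrays of the lines overlapped only at 7 day. From Drg2 onward the folds were 1.24, 1.27 and 1.19. This division into stretches was made after the bin values were seen, and none of it was tested.

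The Nudcd3 to Lcp2 stretch contains some of the brightest genes of the chromosome. Npm1, a nucleolar chaperone, read 18.15, 18.27 and 18.29 in untreated USFKD cells and 18.30, 18.28 and 18.35 in untreated Control cells. Ikzf1, which encodes the lymphoid regulator Ikaros, read 14.81, 14.79 and 14.86 in USFKD and 14.88, 15.01 and 14.86 in Control. Lcp2, a signalling adaptor of leukocytes, read 14.36, 14.44 and 14.42 in USFKD and 14.48, 14.42 and 14.41 in Control. The lines overlapped for all 3 genes. Npm1 lay over 16 on every array, beyond the range of a 16-bit scanner, and whether its probes were saturated was not tested. Mdh1 (cytosolic malate dehydrogenase) and Psme4 (a proteasome activator) had untreated differences of -0.36 and -0.42, neither of them called. The nuclear exporter Xpo1 differed by 0.28 and the checkpoint clamp gene Hus1 by 0.16. Exceptions on the high side were Rel, an NF-kB subunit (0.62), and Myo1g, described below. On the low side Pno1, which acts in ribosome assembly, was called lower (-0.83). Of the 85 coding clusters in the stretch, 6 were called higher and 7 lower untreated. On the other autosomes 337 and 831 of 8676 coding clusters were.

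Single clusters were also counted. A cluster was called where limma gave an adjusted p under 0.05 and a fold over 1.5. In untreated cells 379 members (11.4%) were called higher and 61 (1.83%) lower in USFKD. Over all 28017 clusters above the limit, percent called was 4.27 higher and 5.81 lower. At 24 hr, 387 (11.6%) were called higher and 31 (0.932%) lower, beside 3.71 and 3.9 percent of all clusters. At 7 day, 452 (13.6%) were higher and 130 (3.91%) lower, beside 6.23 and 7.45 percent. Since the chromosomes were chosen on this contrast, nothing further is read from these counts. They also include 39 rows that shared all 18 values with another row, and 3299 rows were distinct.

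Complete separation of the arrays was more frequent than single calls. All 3 USFKD arrays exceeded all 3 Control arrays for 1346 members untreated (40.5%), where 22.6 percent of all clusters did. At 24 hr there were 1243 (37.4%, beside 18 percent) and at 7 day 1024 (30.8%, beside 17.8 percent). The 3 comparisons share no array, but they compare the same lines and each entered the choice of chromosomes. On chromosome 11, 1095 members (49.8%) had a positive difference at all 3 times, as did 567 on chromosome 12 (50.3%) and 26.2% of clusters on the other autosomes. At all 3 times 110 and 53 members of the 2 chromosomes were called higher, and 6 and 2 were called lower, beside 237 higher and 391 lower of the 23109 clusters on the other autosomes.

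Genes of transcription, splicing and translation illustrate the shift in bright transcripts. Polr2a, the catalytic subunit of RNA polymerase II, read 14.21, 14.33 and 14.31 in untreated USFKD cells and 13.60, 12.88 and 12.70 in untreated Control cells. The difference was 1.22 (SE 0.21) untreated, 1.29 at 24 hr and 1.47 at 7 day, with no overlap at any time. Prpf8, the core protein of the spliceosome, read 15.72, 15.95 and 15.84 in USFKD and 15.30, 15.13 and 15.06 in Control, a difference of 0.67 (SE 0.13). Rps7, a protein of the small ribosomal subunit, read 16.89, 16.75 and 16.78 in USFKD and 15.82, 15.98 and 15.84 in Control. Its difference of 0.92 (SE 0.11) was smaller at 7 day (0.46). The untreated USFKD values of Rps7 lay over 16, the limit of a 16-bit scanner, and whether its probes were saturated was not tested.

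Of the 36 members on the list of ribosome, translation and splicing genes, 30 had a positive untreated difference, 35 did at 24 hr and 33 at 7 day. Their medians were 0.28, 0.46 and 0.37, beside 0.16, 0.24 and 0.15 over the 1856 named members. In untreated cells 7 were called higher and no member lower, beside 246 higher and 49 lower of the 1856 named members. Besides the genes above these included Taf15, an RNA-binding component of TFIID (0.79), Rbm25, a splicing regulator (0.76), Srsf5, an SR splicing factor (0.70), and Ddx52, a putative RNA helicase (0.61). Ddx52 differed more at 24 hr (1.04) and 7 day (1.63). Mrpl45, a protein of the mitochondrial ribosome, differed by 0.28, 0.55 and 0.93 at the 3 times and was called at 7 day.

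DNA repair and cell cycle genes on the list numbered 35, of which 31 had a positive difference untreated, 30 at 24 hr and 29 at 7 day, beside 1313, 1418 and 1205 of the 1856 named members. The medians were 0.37, 0.38 and 0.36. Coding clusters alone had 0.22, 0.31 and 0.24 on chromosome 11 and 0.28, 0.35 and 0.33 on chromosome 12. Brca1, which acts in repair of double-strand breaks by homologous recombination, read 9.53, 9.48 and 9.44 in untreated USFKD and 8.23, 8.27 and 8.08 in untreated Control. The difference was 1.29 (SE 0.08) untreated, 0.91 at 24 hr and 1.26 at 7 day. Mlh3, a mismatch repair protein, read 8.99, 9.03 and 8.96 in USFKD and 8.23, 8.05 and 7.88 in Control, and the difference grew to 1.31 at 24 hr and 1.41 at 7 day, against 0.94 untreated. The lines did not overlap for either gene.

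Several other genes of DNA repair lay on these chromosomes. Xrcc3 differed by 0.94, 1.42 and 1.26 at the 3 times. The values were 0.87, 0.74 and 0.99 for Fancm, a DNA translocase of the Fanconi anemia pathway, and 0.85, 0.64 and 0.86 for the helicase gene Brip1. Polg2, the accessory subunit of the mitochondrial DNA polymerase, differed by 0.75, 0.69 and 0.92. All 4 were higher on every USFKD array at each time. In untreated cells 9 of the 35 were called higher, beside 246 of the 1856 named members, among them Tk1 (thymidine kinase, 0.85), Tubg1 (gamma-tubulin, 0.65) and Ska2 (a kinetochore protein, 0.64). Rrm2, the small subunit of ribonucleotide reductase, was the 1 member called lower. It read 11.04, 11.06 and 10.84 in USFKD and 11.73, 11.84 and 11.68 in Control, a difference of -0.77 (SE 0.15).

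The 11 proteasome members had medians of 0.19 untreated, 0.39 at 24 hr and -0.001 at 7 day, with 8, 10 and 5 positive. No member was called untreated, where 246 of the 1856 named members were called higher and 49 lower. At 24 hr 4 were called higher and at 7 day 2, beside 307 and 304 of the named members. With cyclic loess in place of the deposited scaling, Psmb3 (0.68), Psmc5 (0.635) and Psmd3 (0.62) were called higher untreated. On the deposited scaling, the 4 called higher at 24 hr were Psmb3 of the catalytic core (0.88) and Psmd3 of the lid (0.68). The others were the regulatory ATPases Psmc5 (0.84) and Psmc1 (0.67). Psmb3 read 11.45, 10.98 and 10.95 in USFKD at 24 hr and 10.30, 10.46 and 9.99 in Control at 24 hr, without overlap. At 7 day its arrays overlapped, with a difference of -0.08.

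Mitochondrial and metabolic genes were also mostly positive. Of 34 members, 26 were positive untreated, 30 at 24 hr and 27 at 7 day, beside 1313, 1418 and 1205 of the 1856 named members. Their medians were 0.27, 0.44 and 0.35. In untreated cells 8 were called higher and no member lower, beside 246 and 49 of the named members. Aldoc (aldolase C, glycolysis) read 8.93, 8.65 and 8.72 in untreated USFKD and 7.37, 7.54 and 7.39 in untreated Control. Cox11, needed to assemble cytochrome oxidase, differed by 0.73, 1.04 and 0.96 at the 3 times, and its arrays never overlapped. Pcyt2 (phosphatidylethanolamine synthesis) differed by 1.07, 0.66 and 0.46, and Lpin1 (a phosphatidate phosphatase) by 0.89, 0.77 and 0.14. The mitochondrial carrier Slc25a11 differed by 0.60 untreated. The largest of the list was Eno3, the enolase form known from muscle, given with the extremes below.

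**Figure D4:**
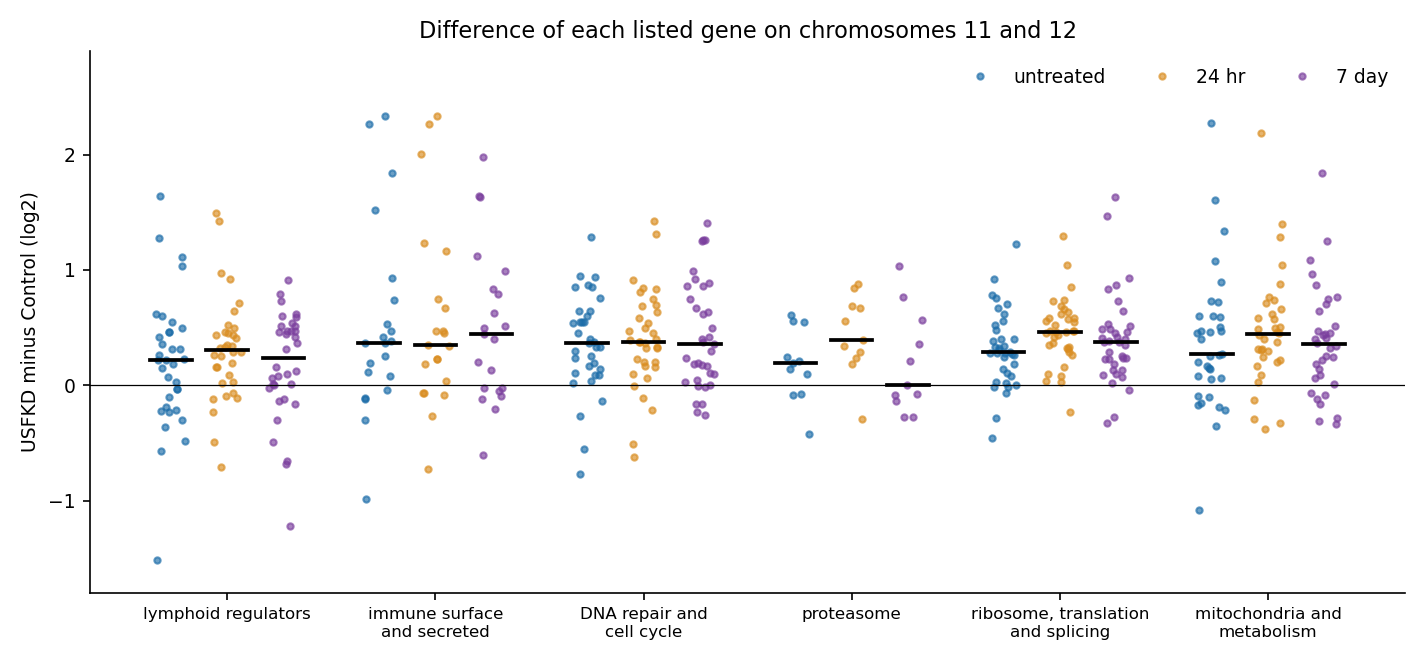
USFKD minus Control difference (log2, vertical axis) of each member on 6 gene lists (horizontal axis), 1 point per gene and time, with the median as a black bar. Medians lie between 0.19 and 0.37 untreated and between 0.30 and 0.46 at 24 hr, and the proteasome median is -0.001 at 7 day.

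Lymphoid regulators and immune surface genes held both some of the highest and some of the lowest differences. Of 34 lymphoid transcription and signalling members, 22 were positive untreated with a median of 0.22, and 6 were called higher and 1 lower (246 and 49 of the 1856 named members). Nfkbia, which encodes the NF-kB inhibitor IkB alpha, read 10.01, 9.93 and 9.49 in untreated USFKD and 8.23, 8.18 and 8.09 in untreated Control. Its difference of 1.64 (SE 0.16) was 1.42 at 24 hr and 0.51 at 7 day. Tnfrsf13b, the receptor TACI for BAFF and APRIL, differed by 1.27, 1.49 and 0.73 without overlap. Tnip1, a restraint on NF-kB signalling, differed by 1.11, and Zfp36l1, which promotes decay of AU-rich mRNAs, by 1.03. The adaptor Grb2 differed by 0.60.

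Ebf1, a transcription factor that specifies the B lineage, ran the other way. It read 10.14, 10.17 and 10.23 in untreated USFKD and 11.76, 11.67 and 11.65 in untreated Control. The difference was -1.52 (SE 0.11) untreated, -0.71 at 24 hr and 0.01 at 7 day, and the lines overlapped only at 7 day. It lay in the bin next to the Nudcd3 to Lcp2 stretch.

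Of 21 immune surface and secreted members, 16 were positive untreated with a median of 0.37. In untreated cells 6 were called higher and 1 lower, beside 246 and 49 of the 1856 named members. Cd300a, an inhibitory receptor of leukocytes, read 8.56, 8.05 and 8.13 in untreated USFKD and 5.86, 6.13 and 5.97 in untreated Control, a difference of 2.26 (SE 0.18). Cd68, an endolysosomal glycoprotein abundant in macrophages, read 11.95, 11.54 and 11.23 in USFKD and 10.11, 10.09 and 9.97 in Control. Both were higher on all USFKD arrays at every time. The myeloid markers Csf1r, Lyz2, Cd14, Itgam and Mpo all averaged at or below 4.32, under the limit. Timd2, a TIM family receptor, differed by 0.93, and Dhx58, the RNA sensor LGP2, by 0.74.

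Icam2, an adhesion molecule, was the list's 1 member called lower. It read 5.51, 5.69 and 5.58 in untreated USFKD and 6.68, 6.53 and 6.53 in untreated Control, a difference of -0.98 (SE 0.11), and stayed lower at 24 hr (-0.73) and 7 day (-0.61).

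The greatest untreated differences far exceeded the chromosome medians. Myo1g, a myosin of blood cells, read 9.99, 9.38 and 9.18 in USFKD and 7.20, 7.26 and 7.10 in Control (difference 2.33, SE 0.17). Eno3 read 11.92, 12.26 and 12.04 in USFKD and 9.78, 9.88 and 9.72 in Control (2.28, SE 0.13). Both remained higher on all arrays at 24 hr (2.26 and 2.18) and 7 day (1.64 and 1.84). The miR-146a locus Mir146, a feedback target of NF-kB, differed by 1.71, and the kinesin gene Kif19a by 1.70.

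On chromosome 12 the greatest was Pld4, an endolysosomal nuclease. It read 8.55, 8.38 and 8.37 in untreated USFKD and 6.60, 6.57 and 6.60 in untreated Control (1.84, SE 0.12), and its difference at 7 day was 0.49. Nfkbia followed. Adssl1, an enzyme of purine nucleotide synthesis, differed by 1.61 and the endosomal FYVE protein gene Zfyve26 by 1.54, both higher on all USFKD arrays at each time.

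The members with the lowest differences after Ebf1 were partly pseudogenes. On chromosome 11 they were the pseudogene Gm11196 (-1.48), Rflnb, which encodes a filamin-binding protein (-1.11), and the pseudogenes Gm8738 (-1.09) and Gm12241 (-1.07). On chromosome 12 Noxred1, annotated as an oxidoreductase, read 6.92, 6.74 and 6.68 in USFKD and 8.18, 8.24 and 7.96 in Control, a difference of -1.35. A chromosome 12 cluster annotated Pgk1 differed by -1.13, but RefSeq places that gene on another chromosome and the cluster may follow a copy. Acot2, an acyl-CoA thioesterase, differed by -1.08 with a broad spread in USFKD (11.20, 10.21 and 9.67). Acot2 was not called, and it has a near-identical neighbour, Acot1, so its probes may not tell the copies apart. Pseudogene probes may likewise share signal with other copies.

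**Figure D5:**
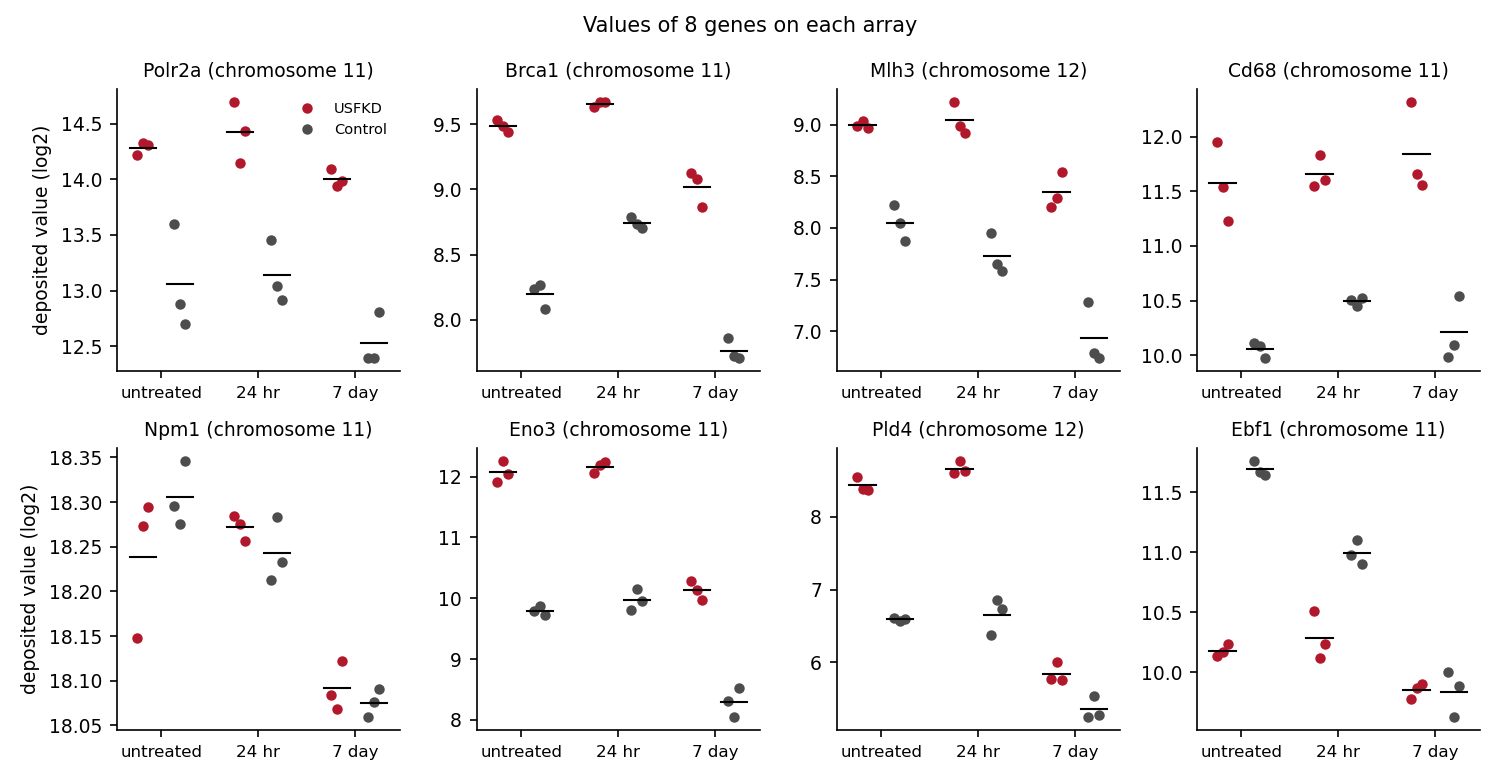
Deposited log2 values (vertical axis) on each array for 8 genes of chromosomes 11 and 12 by time (horizontal axis), USFKD in red left of Control in grey, with group means as lines. Polr2a, Brca1, Mlh3, Cd68, Eno3 and Pld4 separate at every time, Npm1 overlaps, and Ebf1 is lower in untreated USFKD (10.14 to 10.23) than in untreated Control (11.65 to 11.76).

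The study itself had named 8 of the genes given above from these samples: Brca1, Cd300a, Ebf1, Eno3, Icam2, Myo1g, Nfkbia and Pld4. In untreated cells 6 of them were called higher and 2 lower, at 24 hr 6 and 2, and at 7 day 4 and 1. These counts come from the same arrays and are no independent evidence of direction. The study also ran RT-qPCR in separate biological replicates, where Cd300a was higher in USFKD, untreated and at 7 day, than in untreated Control. Nfkbia was measured by RT-qPCR as well.

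The response to irradiation within each line did not choose the chromosomes and was tested. At 24 hr in USFKD, limma called 0 members higher and 0 lower (percent called over all clusters 0.0 and 0.0). The smallest adjusted p was 0.121, and 412 members had an unadjusted p under 0.05. Without USFKD 24 hr replicate 2, 29 members were called. At 24 hr in Control, 109 members (3.28%) rose and 14 (0.421%) fell, beside 3.84 and 0.564 percent of all clusters. The total of 123 calls rested on single arrays: it was 40 without Control 24 hr replicate 1, 73 without replicate 3, and 78, 46 and 61 without Control untreated replicates 1, 2 and 3.

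At 7 day in USFKD, 515 members (15.5%) rose and 221 (6.64%) fell, beside 15.2 and 6.16 percent of all clusters. At 7 day in Control, 705 (21.2%) rose and 337 (10.1%) fell, beside 21.7 and 11.1 percent. These shares were near the background in each direction. The split depends on how arrays are scaled: with each array centred, 341 rose and 400 fell in USFKD at 7 day, 504 rose and 485 fell in Control at 7 day, and 75 rose and 56 fell in Control at 24 hr. With cyclic loess, 391 rose and 305 fell in USFKD at 7 day and 530 rose and 413 fell in Control. The median 7 day change was 0.08 on chromosome 11 and 0.12 on chromosome 12 in USFKD, beside 0.11 on the other autosomes, and 0.14, 0.18 and 0.15 in Control.

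Several of the named genes changed strongly in both lines at 7 day. Snord104, a small nucleolar RNA, read 18.59, 17.87 and 18.26 at 7 day in USFKD, against 13.98, 14.23 and 13.89 untreated. It rose by 4.20 in USFKD (adjusted p = 1.85e-08, limma) and by 5.00 in Control (adjusted p = 1.52e-09). Rrm2 read 9.48, 9.43 and 8.87 at 7 day in USFKD, against 11.04, 11.06 and 10.84 untreated. It fell by 1.72 in USFKD (adjusted p = 5.71e-06) and fell by 2.53 in Control (adjusted p = 6.09e-08). The 7 day and untreated arrays did not overlap for either gene in USFKD. The small nucleolar RNA clusters Rnu3b1, Rnu3b2 and Rnu3b3 held identical values, being near-identical copies, and rose by 1.97 in USFKD (adjusted p = 2.9e-05, limma) and by 3.71 in Control (adjusted p = 4.87e-08). Snord104 lay over 16, the limit of a 16-bit scanner, on every 7 day array of both lines, as did the Rnu3b clusters in Control at 7 day. Whether their probes were saturated was not tested.

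The cluster Gm6969 rose by 2.04 in USFKD (adjusted p = 6.18e-05, limma) and by 2.13 in Control (adjusted p = 1.3e-05). Grn, which encodes the secreted protein progranulin, fell by 1.57 in USFKD (adjusted p = 5.19e-05) and fell by 2.68 in Control (adjusted p = 2.22e-07).

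Eno3 fell by 1.94 in USFKD (adjusted p = 1.35e-06, limma) and fell by 1.503 in Control (adjusted p = 1.5e-06) at 7 day. Nefh, the heavy neurofilament subunit, fell by 1.73 in USFKD (adjusted p = 4.65e-06) and fell by 2.22 in Control (adjusted p = 1.7e-07). Pld4 fell by 2.59 in USFKD (adjusted p = 5.33e-08) and fell by 1.24 in Control (adjusted p = 3.33e-06). Rps7 rose by 0.83 in USFKD (adjusted p = 0.000111) and by 1.29 in Control (adjusted p = 9.62e-07). At 24 hr in Control, Brca1 changed by 0.55, which passed the p threshold but not the fold (adjusted p = 0.00283), and Pno1, a ribosome assembly factor, fell by 0.75 (adjusted p = 0.0276).

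Over the 1856 named members, 162 rose and 191 fell at 7 day in USFKD, and 250 rose and 281 fell in Control. The list counts below are on the deposited scaling, and the split over all members turned with centring as given above. Among DNA repair and cell cycle members 1 rose and 9 fell in USFKD, and 0 rose and 10 fell in Control. Among ribosome, translation and splicing members 2 rose and 7 fell in USFKD, and 4 rose and 10 fell in Control. For lymphoid regulators the counts were 1 and 10 in USFKD and 4 and 8 in Control, for immune surface genes 2 and 6 and then 1 and 7, and for mitochondria and metabolism 1 and 8 in both lines. The proteasome had 2 falls in USFKD and 4 in Control.

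The difference between the lines in the 7 day change was tested as an interaction. By limma 63 members (1.89%) had a more positive change in USFKD than in Control and 62 (1.86%) a more negative one, beside 2.56 and 1.65 percent of all clusters. The interaction is the 7 day difference between the lines minus the untreated one, and both entered the choice of chromosomes, so nothing further is read from these counts. Ebf1 fell by 1.86 in Control and changed by -0.33 in USFKD, a difference in change of 1.53. Nfkbia rose by 1.53 in Control and changed by 0.40 in USFKD, a difference of -1.13. Both genes were named for their extreme untreated differences, and the untreated arrays enter all of these values. The changes and their differences are therefore given without a test.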

How the data were processed

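RNA from 18 samples was hybridized to Affymetrix Mouse Transcriptome 1.0 arrays. The deposited log2 values were made by the authors with RMA in Affymetrix Expression Console (background adjustment, quantile normalization and summarization; versions and array build are not given in the sources used here), and 1339 rows hold a value over 16, the limit of a 16-bit scanner. No further scaling was applied. Chromosomes were read from cluster identifiers. Symbols from the platform annotation were matched to RefSeq GRCm38.p6, which placed 1259 members of chromosome 11 and 574 of chromosome 12 on the chromosome of their identifier. RefSeq served for symbols, class, order and promoter windows. For listed genes with several clusters the brightest was used.

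The model held 6 group means (limma 3.58.1, R 4.3.3, 12 residual and 2.65 prior degrees of freedom), with Benjamini-Hochberg adjustment over all 72688 rows within each contrast. The scripts were tested on simulated data. The number of arrays limits the precision. Named genes were members of 7 lists, the 5 highest and 5 lowest untreated differences per chromosome without overlap, up to 4 called rises and falls per contrast within a line, and members next to the limit. Members and lists were chosen with earlier results of these data known. Alternatives were cyclic loess, centring of arrays, other level limits, cluster choices and summaries, a replicate block, a variance trend, smaller fits and leaving out each array.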

Additional observations from a re-analysis of the deposited data

Results flagged for a closer look

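Among 199 named genes examined, 19 had a 7 day change that differed between the lines by limma's interaction test (adjusted p under 0.05 and fold over 1.5), which is what marked them. Over all clusters above the limit, 2.56 percent passed with a more positive and 1.65 percent with a more negative change in USFKD. The named genes were partly picked on values that enter this difference, so their count cannot be set against those shares. The difference also equals the 7 day USFKD minus Control difference minus the untreated one, and both entered the choice of chromosomes. The values below are therefore given without a p, as USFKD minus Control differences of the change.

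Of the listed genes, Sqstm1 (the autophagy receptor p62) changed by -0.02 in USFKD and 1.22 in Control, a difference of -1.25 (adjusted p = 0.00232). Lcp2 (signalling adaptor) changed by -1.05 in USFKD and -0.40 in Control, a difference of -0.65 (adjusted p = 0.0126). Ikzf1 (Ikaros) changed by -0.62 in USFKD and -1.34 in Control, a difference of 0.71 (adjusted p = 0.0172). Max (partner of Myc) changed by -0.25 in USFKD and -0.89 in Control, a difference of 0.64 (adjusted p = 0.0159). Prkca (protein kinase C alpha) changed by -0.02 in USFKD and -0.77 in Control, a difference of 0.75 (adjusted p = 0.0193). Aldh6a1 (mitochondrial dehydrogenase) changed by 0.88 in USFKD and 0.06 in Control, a difference of 0.82 (adjusted p = 0.0183). Among genes of replication and RNA processing, Pole2 (a subunit of DNA polymerase epsilon) changed by -0.47 in USFKD and -1.52 in Control, a difference of 1.05 (adjusted p = 0.0105). Ddx52 (RNA helicase) changed by 0.53 in USFKD and -0.49 in Control, a difference of 1.02 (adjusted p = 0.0177). Srsf1 (SR splicing factor) changed by -0.45 in USFKD and -1.20 in Control, a difference of 0.75 (adjusted p = 0.0355). Mrpl45 (mitochondrial ribosome) changed by 1.37 in USFKD and 0.72 in Control, a difference of 0.65 (adjusted p = 0.00519).

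Ebf1, Nfkbia, Pld4 and Gm6768 were named for an extreme untreated difference, and Gen1, Grn, Gm12238, Gm22513 and Rnu3b1 for a large change within a line. The values that picked them enter their differences, which are likewise given without a p. They were 1.53 for Ebf1, -1.13 for Nfkbia, -1.35 for Pld4, 0.72 for Gm6768, 0.91 for Gen1, 1.12 for Grn, -1.59 for Gm12238, -1.07 for Gm22513 and -1.75 for Rnu3b1.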

How the results depend on the processing

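No shift of a chromosome and no called value of a named gene changed sign, but with arrays centred the 7 day calls in USFKD turned to 341 higher and 400 lower, against 515 and 221. Relative to the other autosomes, the shift is given for untreated, 24 hr and 7 day arrays in turn. With no level limit it was 0.052, 0.064 and 0.057 on chromosome 11 and 0.045, 0.053 and 0.048 on chromosome 12. With a limit of 7 it was 0.289, 0.307 and 0.22, and 0.322, 0.279 and 0.279. Clusters with 1 symbol gave 0.188, 0.234 and 0.173, and 0.206, 0.238 and 0.199. The brightest cluster per gene gave 0.188, 0.233 and 0.174, and 0.209, 0.24 and 0.201. The mean gave 0.202, 0.227 and 0.188, and 0.207, 0.211 and 0.183. Protein-coding clusters alone, an alternative chosen after seeing the data, gave 0.279, 0.317 and 0.236, and 0.334, 0.352 and 0.334. Leaving out 1 array gave 0.144 to 0.154, 0.172 to 0.197 and 0.135 to 0.156 on chromosome 11, and 0.153 to 0.168, 0.171 to 0.193 and 0.14 to 0.171 on chromosome 12.

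Members called higher untreated numbered 379, 247 with 1 symbol only and 617 with no fold threshold. At 24 hr they numbered 387 and 639 with no fold threshold, and at 7 day 452, 705 with no fold threshold and 270 with only the 6 arrays compared. Leaving out 1 array gave 288 to 397, 316 to 401 and 399 to 460. Calls after irradiation ranged over 0 to 29 in USFKD at 24 hr, with 29 without USFKD 24 hr replicate 2, and 590 to 792 at 7 day. In Control they ranged over 40 to 158 at 24 hr, where all arrays gave 123, and 977 to 1050 at 7 day. The Control 24 hr count was 40 without Control 24 hr replicate 1, 73 without replicate 3, and 78, 46 and 61 without untreated replicates 1, 2 and 3. The causes were not tested.

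Replicate numbers were not taken to pair the samples. Deviations from the group means correlated between -0.419 and 0.342 over 45 pairs of same-numbered arrays (median 0.0146), and 12 exceeded 0.1. Differently numbered arrays were not set beside them, so these values cannot exclude pairing. Taken from the medians of single arrays, the untreated shift was 0.153 on chromosome 11 and 0.185 on chromosome 12. Pairing by replicate number leaves such a difference of means unchanged, so it could not test the pairing. With a replicate block in the fit, 375, 378 and 463 members were called higher at the 3 times. Of 107 values of named genes (untreated differences and 7 day changes), called or not, 2 lost a call with the block, 3 with centring and 2 with cyclic loess, which also gave 4 a call (Ogdh, Psmb3, Psmc5 and Psmd3), and 11 lost one on leaving out some array.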
